A study of Mus musculus with 12 samples.

Results

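The nuclear genes of the oxidative phosphorylation system were examined in adrenal RNA of mice that lacked the cholesterol exporter Abcg1 in cortical cells. Members were the gene IDs whose symbol starts with Nduf followed by a, b, c, s or v, with Uqcr, with Atp5 or with Cox and a digit from 4 to 8, together with Sdha, Sdhb, Sdhc and Sdhd. They were 92 of the 24421 genes in the deposited table. Of these, 80 were grouped as subunits or tissue isoforms of the complex they are named for, and 7 are the complex I assembly factors Ndufaf1 to Ndufaf7. Another 5 were kept apart, namely Ndufa4, which is named for complex I but now counted as a subunit of complex IV, its paralogue Ndufa4l2, Cox7a2l, Atp5s and Atp5sl.

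PolyA-selected, stranded RNA sequencing was done on whole adrenals, cleaned of adherent fat, from 12 mice in 3 groups of 4. All were 2-month-old females on a mixed sv129-C57BL/6 background. Both cKO groups carried a Cre knock-in at the aldosterone synthase gene (Cyp11b2), which recombines in cortical cells and leaves medulla, vessels and other cells of the gland unrecombined. Abcg1 cKO mice had both Abcg1 alleles conditionally inactivated, Abca1 cKO mice both alleles of the related exporter Abca1, and the labels describe control mice as carrying Cre alone, while the methods also allow littermates with 1 conditional allele, so a control may have lacked Cre. The table gives 1 mean normalized count (reads per gene divided by a size factor of the library) for the 4 Abcg1 cKO libraries and 1 for the 8 control and Abca1 cKO libraries together, so control and Abca1 cKO cannot be told apart. The names of the single-library columns match no label, and samples were not assigned to groups from their values, so these columns stayed out. No spread between animals and no test is therefore given, and every difference below is a difference between 2 means. Abcg1 itself, counted over the whole gene, stood at 305 in the combined group and 250 in Abcg1 cKO, a count that takes in exons outside the deleted part. Abca1 stood at 7791 and 10057, but 4 of the 8 combined libraries are Abca1 cKO, so these values do not compare Abcg1 cKO with control. By quantitative PCR, the paper found Abca1 transcripts unaffected in Abcg1 cKO adrenals.

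Oxidative phosphorylation couples the oxidation of fuel to ATP synthesis at the inner mitochondrial membrane. Complex I takes electrons from NADH and complex II from succinate, complex III passes them from ubiquinol to cytochrome c, complex IV reduces oxygen, and complex V, the ATP synthase, is driven by the proton gradient that complexes I, III and IV build. Complexes I, III, IV and V join subunits encoded in the nucleus with subunits encoded in mitochondrial DNA, while complex II is encoded in the nucleus alone. In adrenocortical cells the mitochondria also hold the first and last enzymes of corticosterone synthesis, which draw electrons from NADPH through ferredoxin reductase and ferredoxin and not through these complexes.

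The transcripts of the oxidative phosphorylation genes lay close together between the conditions. With a mean of at least 10 over all libraries, 89 members were described. Their log2 ratios, with Abcg1 cKO in the numerator and a pseudocount of 1 on each mean, had a median of 0.04, with an interquartile range from 0.00 to 0.09. Past the fold change of 1.2 that the study used as its cutoff, 2 members were higher in Abcg1 cKO (Atp5g1 and Cox6a1) and 2 were lower (Cox6b2 and Cox6a2). Over all 14305 genes with such a mean, 10.4% were higher and 12.2% lower past this fold. Of the 89 members, 74 had a mean of at least 1000, a level that 4183 of the 14305 genes reached.

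Among abundant genes, with a mean of at least 1000, a limit added after the data were seen, the members lay closer together than the rest around the same median. Of 74 such members, 2 were higher past the fold and none was lower, beside 7.51% higher and 1.96% lower of 4183 genes. The median log2 ratio was 0.05 for these members and 0.05 for all genes of that level. The interquartile range of the members spanned 0.09 on the log2 scale, that of all genes 0.16. A log2 ratio above 0 was found for 60 of the 74 members, where 64.9% of all genes of that level were above 0. With a mean of at least 10, 67 of 89 members were above 0, against 50.3% of all genes.

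**Figure D1:**
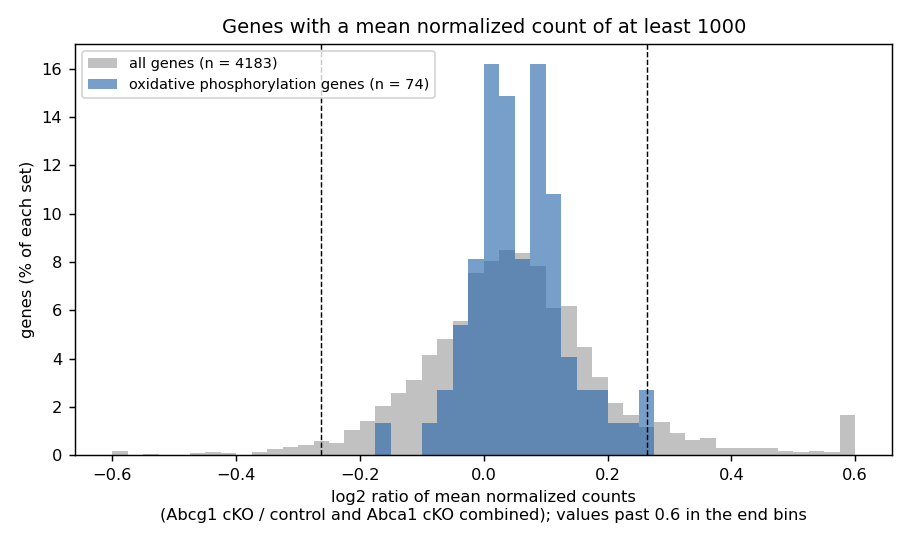
Percentage of genes in each bin of the log2 ratio of mean normalized counts (Abcg1 cKO mean divided by the mean of the 8 other libraries) for 74 oxidative phosphorylation genes and 4183 genes in all with a mean of at least 1000. Dashed lines mark a fold of 1.2, and values past 0.6 are put in the end bins. Both sets have a median of 0.05, and the interquartile range of the oxidative phosphorylation genes spans 0.09 against 0.16.

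Summed over the 92 members, normalized counts made up 1.65% of the total in the combined group and 1.69% in Abcg1 cKO. Complexes I and V each took 0.54% of the total in the combined group, complex IV 0.27%, complex III 0.17% and complex II 0.13%. In Abcg1 cKO the shares were 0.54% for complex I, 0.56% for complex V, 0.27% for complex IV, 0.17% for complex III and 0.14% for complex II. In whole glands, fewer cells of a type and less RNA per cell cannot be told apart.

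**Figure D2:**
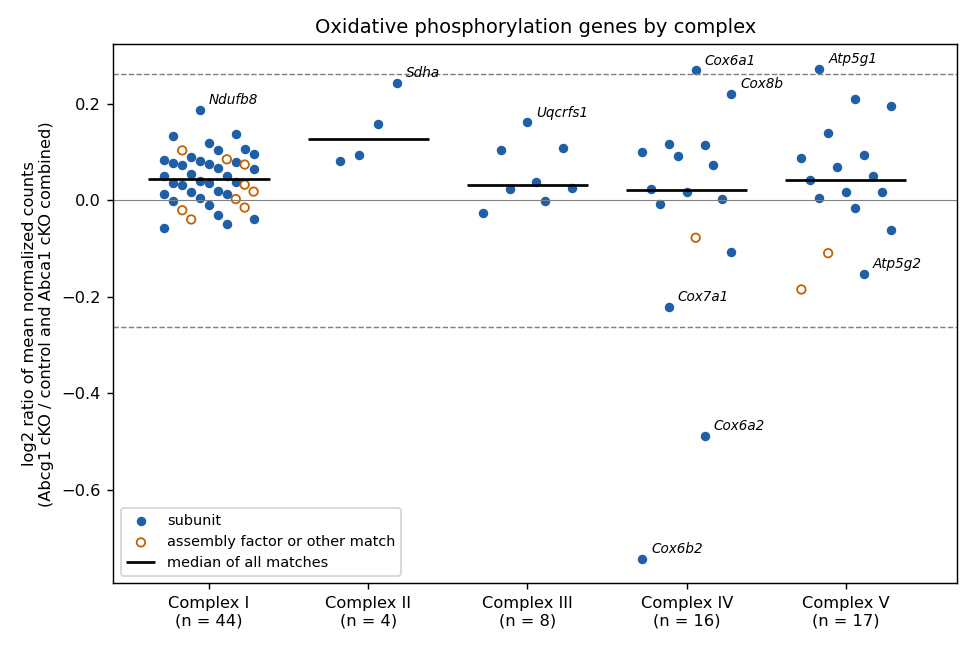
log2 ratio of mean normalized counts (Abcg1 cKO mean divided by the mean of the 8 other libraries) for the 89 oxidative phosphorylation genes with a mean of at least 10, by complex. Filled points are subunits, open points assembly factors and other matches, bars medians of all matches, and dashed lines a fold of 1.2. Complex II sits highest with a median of 0.13, complex I holds no gene past the fold, and the lowest points are Cox6b2 at -0.74 and Cox6a2 at -0.49.

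Complex I genes kept the tightest range of the larger complexes. The 44 that passed the filter ran from a log2 ratio of -0.06 to 0.19, with a median of 0.05, and none was past the fold. All 7 core subunits encoded in the nucleus, which carry the flavin and the iron-sulfur clusters or the quinone site, had a higher mean in Abcg1 cKO, by log2 ratios from 0.02 for Ndufs8 to 0.14 for Ndufs1. Ndufs1, the largest subunit, stood at 4074 in the combined group and 4482 in Abcg1 cKO. Of 28 accessory subunits, which surround the core, 22 were above 0 and 6 below. These core and accessory subunits all had a mean of at least 1000, where 64.9% of all genes were above 0.

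The highest complex I genes were the membrane arm subunits Ndufb8 and Ndufb9 and the core subunit Ndufs1. Ndufb8 stood at 2189 in the combined group and 2495 in Abcg1 cKO (log2 ratio 0.19). Ndufb9 stood at 2949 and 3236 (log2 ratio 0.13). The lowest with a mean of at least 100 were Ndufb4, at 1014 and 975 (log2 ratio -0.06), Ndufc2, at 2153 and 2081 (-0.05), and the assembly factor Ndufaf6, at 105.1 and 102.2 (-0.04). The lowest ratios of the complex were thus nearer to 0 than the highest. The 7 assembly factors had a median of 0.02 and ran from -0.04 to 0.09. They were less abundant than the subunits, from 105.1 for Ndufaf6 to 920 for Ndufaf4 in the combined group.

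Complex II had the highest median of the 5 complexes, 0.126, and all 4 of its genes had a higher mean in Abcg1 cKO. All 4 had a mean of at least 1000, a level at which 64.9% of all genes were above 0. The interquartile range of all genes at that level, from -0.036 to 0.129, took in the median of complex II. Sdha, the flavoprotein that oxidizes succinate, stood at 12282 in the combined group and 14549 in Abcg1 cKO (log2 ratio 0.24), just short of the fold. Sdhc, a membrane anchor that helps bind heme and ubiquinone, stood at 2278 and 2541 (log2 ratio 0.16). Sdhb, which carries the iron-sulfur clusters, stood at 6451 and 6888 (log2 ratio 0.09), and the second anchor Sdhd at 2839 and 3005 (log2 ratio 0.08). None of the 4 passed the fold. Per kb of annotated exon, Sdhc was the lowest of the 4 and Sdhd the next by each of 3 ways of taking the length (701 and 2306 normalized counts per kb in the combined group with all exons joined).

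Complex II is also an enzyme of the citric acid cycle, and genes of that cycle had similar ratios. Of 14 measured, 13 were above 0 and 1 below, with a median log2 ratio of 0.10 and none past the fold. All 14 had a mean of at least 1000, where 64.9% of all genes were above 0. Their median lay within the interquartile range of all genes at that level, from -0.036 to 0.129. Fh1, the fumarase that takes the product of complex II, stood at 2798 in the combined group and 3296 in Abcg1 cKO (log2 ratio 0.24). The exception was Idh2, the NADP-dependent isocitrate dehydrogenase of mitochondria, at 2617 and 2346 (log2 ratio -0.16).

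In complex III the 8 genes had a median log2 ratio of 0.03 and ran from -0.03 to 0.16. Uqcrfs1, the Rieske iron-sulfur protein that takes electrons from ubiquinol, was highest at 2808 in the combined group and 3142 in Abcg1 cKO (log2 ratio 0.16). The small subunit Uqcr10 stood at 3700 and 3988 (log2 ratio 0.11), and Uqcrc2, one of the core proteins, at 5429 and 5838 (0.10). At the lower end Uqcrb, a small subunit next to cytochrome b, stood at 3676 and 3610 (log2 ratio -0.03), Uqcrh, the hinge protein, at 3905 and 3900, and Uqcr11 at 3844 and 3907 (0.02). Even for Uqcrfs1 the difference was 11.9% of the combined mean.

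Complex IV held the widest range, with common subunits mostly above 0 and the tissue isoforms of low level below. Several of its nuclear subunits are made in a common form and in a form used mainly in heart, skeletal muscle and brown fat (Cox6a2, Cox7a1, Cox8b), in lung (Cox4i2) or in testis (Cox6b2, Cox7b2, Cox8c). Of 10 common subunits 9 were above 0, with a median of 0.08. All 10 had a mean of at least 1000, where 64.9% of all genes were above 0. Of 5 tissue isoforms with a mean of at least 10, 1 was above 0 and 4 below, with a median of -0.22. Only Cox8b and Cox7a1 of these had a mean of at least 100, with 1 above 0, 1 below and a median of 0.00, so the lower median rests on Cox6b2, Cox6a2 and Cox4i2 at means under 100. The median of complex IV as a whole was 0.02, and it was 0.07 over the 13 genes with a mean of at least 100.

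Cox6a1, the common form of a small subunit at the dimer interface, was the highest of complex IV at 5871 in the combined group and 7076 in Abcg1 cKO (log2 ratio 0.27). Its muscle counterpart Cox6a2 stood at only 16.5 and 11.5 (log2 ratio -0.49). Cox6b1, whose product bridges the dimer on the outer face of the inner membrane, stood at 5383 and 5740 (log2 ratio 0.09). The testis form Cox6b2 stood at 51.2 and 30.2 (log2 ratio -0.74), the largest difference of any member. Both lower isoforms had means under 100, and no member with a mean of at least 100 was lower past the fold.

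The remaining isoforms had ratios on both sides of 0. Cox7a1 stood at 241 in the combined group and 207 in Abcg1 cKO (log2 ratio -0.22), while its common counterpart Cox7a2 stood at 2958 and 2962 (0.00). Cox8b, used in muscle and brown fat like Cox7a1, stood at 334 and 390 (log2 ratio 0.22), and the common Cox8a at 4715 and 5112 (0.12). Cox4i2 stood at 64.7 and 60.0 (log2 ratio -0.11), and Cox4i1, the largest nuclear subunit of the complex, at 8952 and 8900 (-0.01). Cox7a2l, which takes part in joining complexes III and IV and is no subunit of the common set, stood at 3106 and 2944 (log2 ratio -0.08). Cox7c, a small subunit with no isoform among the members, stood at 3147 and 3406 (log2 ratio 0.11).

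Per kb of the principal transcript, the common form made up most of each family in both conditions. Cox4i1 took 99.3% of its family in the combined group, Cox6a1 99.8%, Cox6b1 98.8%, Cox7a2 88.0% and Cox8a 90.2%. The corresponding shares in Abcg1 cKO were 99.3%, 99.9%, 99.3%, 89.5% and 89.6%. Cox7a1, with 12.02% and 10.5%, and Cox8b, with 9.77% and 10.4%, were the only tissue isoforms of complex IV above 2% of their family. The share of Cox7a1 was 12.6% and 10.96% with all exons joined. Ndufa4, first placed in complex I and now counted with complex IV, stood at 5032 and 4980 (log2 ratio -0.01) and took 94.0% of the sum with its paralogue Ndufa4l2, a gene known to respond to hypoxia, which stood at 491 and 527 (0.10).

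**Figure D3:**
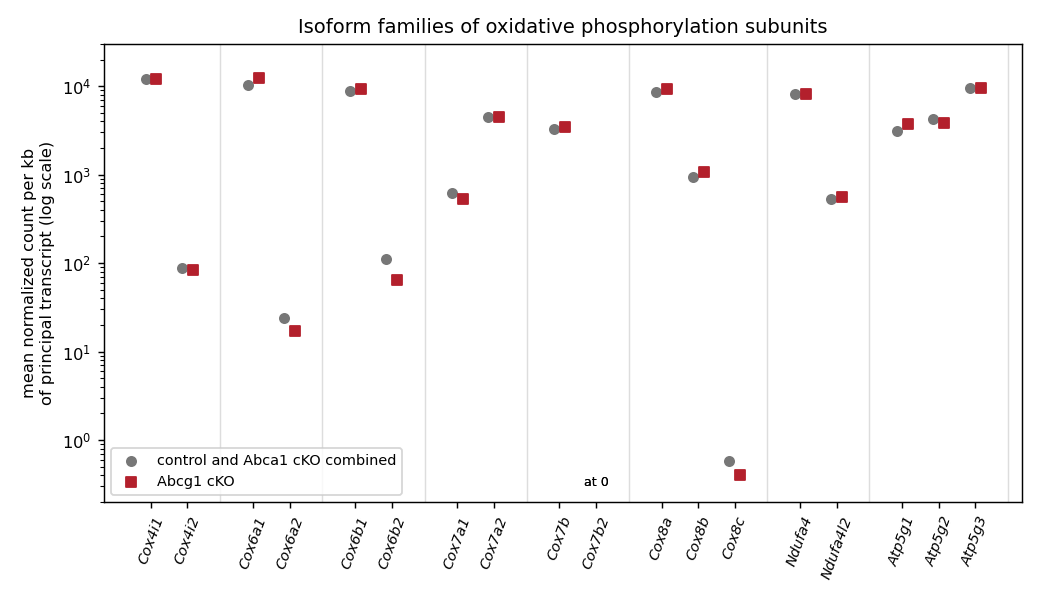
Mean normalized count per kb of principal transcript, on a log scale, for the isoform families of oxidative phosphorylation subunits. Circles are control and Abca1 cKO combined, squares Abcg1 cKO, and Cox7b2 is listed at 0. The common forms lie above their tissue isoforms in both conditions, and the 3 Atp5g genes lie between 3130 and 9595 in the combined group.

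The sequences before the start sites of these isoforms are shown because the common and the tissue forms differ in their CpG content. Each is 250 bases from the RefSeq annotation of GRCm38.p6, the build that mm10 names, read 5′ to 3′ on the gene's strand, and capitals mark matches to a CCAAT box, to the ETS motif or to the NRF1 motif described further on. Cox6b1 lies at chr7:30626115-30626364 on the minus strand with 14 CpG, Cox6b2 at chr7:4753095-4753344 on the minus strand with 8, Cox7a2 at chr9:79759854-79760103 on the minus strand with 14 and Cox7a1 at chr7:30183921-30184170 on the plus strand with 4.
Cox6b1: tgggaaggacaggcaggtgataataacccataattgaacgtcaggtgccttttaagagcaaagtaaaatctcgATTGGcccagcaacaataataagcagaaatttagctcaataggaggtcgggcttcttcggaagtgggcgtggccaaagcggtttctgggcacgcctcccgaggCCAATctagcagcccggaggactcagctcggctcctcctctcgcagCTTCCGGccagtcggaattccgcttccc
Cox6b2: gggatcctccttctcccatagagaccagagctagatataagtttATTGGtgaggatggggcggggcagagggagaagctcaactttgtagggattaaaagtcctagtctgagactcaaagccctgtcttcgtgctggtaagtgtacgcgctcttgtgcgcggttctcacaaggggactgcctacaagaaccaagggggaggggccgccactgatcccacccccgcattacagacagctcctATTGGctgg
Cox7a2: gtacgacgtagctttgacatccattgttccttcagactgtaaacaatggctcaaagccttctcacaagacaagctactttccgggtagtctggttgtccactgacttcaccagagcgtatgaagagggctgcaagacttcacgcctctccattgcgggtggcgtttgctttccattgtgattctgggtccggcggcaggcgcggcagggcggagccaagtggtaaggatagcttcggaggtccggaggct
Cox7a1: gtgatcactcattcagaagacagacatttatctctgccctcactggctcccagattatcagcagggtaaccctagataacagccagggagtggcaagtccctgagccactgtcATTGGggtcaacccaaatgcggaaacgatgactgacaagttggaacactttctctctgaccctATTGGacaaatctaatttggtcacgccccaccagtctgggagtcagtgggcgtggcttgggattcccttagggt

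Over windows of 300 bases that add 50 bases after the start, the 8 windows of common complex IV subunits held a median of 19.5 CpG. The 4 windows of tissue isoforms held a median of 8.5, between 2 and 10. The lowest common subunit, Cox7b, had 5, so the ranges overlapped.

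Complex V genes had a median log2 ratio of 0.04, and among their groups the F1 subunits had the highest median. All 5 F1 subunits were above 0, with a median of 0.14. Each had a mean of at least 1000, where 64.9% of all genes were above 0. Atp5a1 and Atp5b encode the alpha and beta subunits that form the catalytic hexamer. Atp5b was the most abundant member at 25349 in the combined group and 27909 in Abcg1 cKO (log2 ratio 0.14), and Atp5a1 stood at 20484 and 23457 (0.20). Atp5d, the delta subunit of the central stalk, stood at 3647 and 4216 (log2 ratio 0.21). The gamma subunit Atp5c1 stood at 7617 and 7884 (0.05) and the epsilon subunit Atp5e at 3236 and 3331 (0.04). The 4 genes of the peripheral stalk had a median of 0.04 and the 3 small membrane subunits one of 0.02.

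The genes of the c ring had ratios from -0.15 to 0.27. Atp5g1, Atp5g2 and Atp5g3 encode the same mature c subunit behind different mitochondrial targeting peptides. Atp5g1 had the highest log2 ratio of all members, at 1865 in the combined group and 2255 in Abcg1 cKO (0.27), while Atp5g2 stood at 1884 and 1695 (-0.15) and Atp5g3 at 6851 and 6872 (0.00). Summed per kb of principal transcript, the 3 genes gave a log2 ratio of 0.02, and with all exons joined one of -0.01. Atp5g3 was the largest of the 3 by each length, with 56.5% in the combined group and 55.8% in Abcg1 cKO per kb of principal transcript. The share of Atp5g1 depended on the length, at 18.4% in the combined group with the principal transcript of 596 bases and 8.18% with the 4912 bases of all exons joined. Atp5g1 also has a processed copy, Gm10039, that matches 411 of its bases at 99.8% identity, so reads from it can be lost or misplaced where only unique matches are counted.

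The other lower genes of complex V were Atp5s and Atp5sl, named for ATP synthase although neither is a subunit of it. Atp5sl, now Dmac2, a factor in complex I assembly, stood at 426 and 375 (log2 ratio -0.18), and Atp5s at 310.1 and 287 (-0.11). Atp5j, coupling factor 6 of the peripheral stalk, stood at 4241 and 4064 (log2 ratio -0.06).

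Promoters of Atp5g1, Cox6a1 and Sdha, the 3 members with the highest ratios, are shown to compare their motifs. Sdha lies at chr13:74350241-74350490, Cox6a1 at chr5:115348959-115349208 and Atp5g1 at chr11:96075632-96075881, each on the minus strand, and 250 bases before the start are given as above.
Sdha: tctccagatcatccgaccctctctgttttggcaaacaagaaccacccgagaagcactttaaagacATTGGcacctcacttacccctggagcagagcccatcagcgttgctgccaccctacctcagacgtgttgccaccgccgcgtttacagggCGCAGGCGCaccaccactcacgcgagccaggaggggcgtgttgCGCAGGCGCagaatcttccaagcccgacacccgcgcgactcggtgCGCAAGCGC
Cox6a1: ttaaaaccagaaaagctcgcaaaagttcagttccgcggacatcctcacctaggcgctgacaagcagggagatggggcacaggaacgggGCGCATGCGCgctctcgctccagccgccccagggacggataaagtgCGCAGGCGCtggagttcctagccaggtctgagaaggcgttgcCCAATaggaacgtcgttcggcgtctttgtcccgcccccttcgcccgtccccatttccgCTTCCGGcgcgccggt
Atp5g1: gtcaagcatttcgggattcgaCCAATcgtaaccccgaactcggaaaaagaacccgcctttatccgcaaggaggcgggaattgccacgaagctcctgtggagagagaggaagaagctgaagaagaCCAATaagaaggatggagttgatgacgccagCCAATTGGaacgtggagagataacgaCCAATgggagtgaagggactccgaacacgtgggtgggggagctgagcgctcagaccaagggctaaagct

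The motifs are those of factors known for nuclear genes of mitochondria. They were searched on both strands as GCGCNTGCG for NRF1, CCGGAAG for ETS factors such as GABP, AAGATGGCG for YY1, CCAAT for the CCAAT box and TATAAA for the TATA box, and none of these contains another, but matches can overlap on opposite strands. The Sdha stretch holds 3 separate NRF1 matches. The Cox6a1 stretch also gives 3, but 2 of them overlap on opposite strands, so that 2 places are in capitals. The Atp5g1 stretch has no NRF1 match and 5 CCAAT matches, of which 2 overlap on opposite strands. A match is a description of letters, not of binding.

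RefSeq windows of 300 bases were found for 76 of the 92 members, with 82 windows in all. The NRF1 motif was in 34.1% of the members' windows and in 6.31% of all 32851 windows. Windows of genes with a mean of at least 1000 are the closer comparison, since they are about as rich in CpG as those of the members at that level, with medians of 22 and 19. There the motif was in 33.8% of 68 windows of members and in 16.03% of 4262 windows of all genes. The YY1 motif was in 10.3% and 3.71%, the ETS motif in 23.5% and 19.1%, and the CCAAT box in 39.7% and 37.3%. Windows were counted for every gene named for a complex, with assembly factors and other matches such as Ndufaf4 and Atp5sl included. Some genes have more than 1 window. By complex, the NRF1 motif was in 12 of 41 windows for complex I, 2 of 3 for complex II and 3 of 5 for complex III. It was in 1 of 13 for complex IV and 10 of 20 for complex V. With 1 more base at its 3′ end, the form first searched, the NRF1 motif was in 10, 2, 1, 1 and 6 of these windows and in 24.4% of all the members' windows.

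A mean of under 10 was given for 3 members. Cox8c, a testis isoform, stood at 0.27 in the combined group and 0.18 in Abcg1 cKO, and Cox7b2 was listed at 0. Ndufs5, an accessory subunit of complex I in every tissue, was also listed at 0 in both conditions. In the GENCODE annotation of GRCm38 it lies on chromosome 4 from 123712710 to 123718202, and a processed copy, BC002163, matches 319 of its bases at 99.4% identity. BC002163 was listed at 11.1 in the combined group and 11.6 in Abcg1 cKO. The 0 of Ndufs5 is given as listed and says nothing of its transcript. In all, 13 members were found to have a stretch in another annotated gene at an identity of 95% or more. In some cases it is a neighbour that overlaps them and in others a processed copy, as for Cox5b, Ndufab1 and Ndufs3. Their levels are uncertain to that extent. The search took only the longest transcript of each member and dropped short matches, so copies of other members may have been missed. Subunits encoded in mitochondrial DNA were not analysed here.

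Genes that build or regulate the complexes had list medians from 0.00 to 0.07, beside 0.04 for the members. No gene was past the fold among 7 further complex I assembly factors (median 0.00), 4 of complex II (0.03), 6 of complex III (0.01), 21 of complex IV (0.07) and 6 genes of ATP synthase assembly and regulation (0.01). Atpif1, the inhibitor of ATP hydrolysis by complex V, stood at 2871 in the combined group and 2511 in Abcg1 cKO (log2 ratio -0.19). Among 7 genes of mobile electron carriers and supercomplex factors, Cox7a2l included, 6 were above 0 with a median of 0.04 and none was past the fold. Cycs, cytochrome c, stood at 1177 and 1366 (log2 ratio 0.21). Of 20 genes of the mitochondrial ribosome 13 were above 0 and 7 below, with a median of 0.03. Among 11 regulators of mitochondrial biogenesis the median was 0.01, with Tfam, the packaging and transcription factor of mitochondrial DNA, at 1011 and 1017 (0.01). Ppargc1a, the coactivator PGC-1alpha, was the only one of these regulators past the fold, at means of 34.1 and 44.2 (log2 ratio 0.36).

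Genes of the steroidogenic system of the same mitochondria had ratios further from 0. All 6 genes of that list were above 0, with a median log2 ratio of 0.30, and 4 were past the fold. All 6 had a mean of at least 1000, where 7.51% of all genes were higher past the fold. The paper states that transcripts for the steroidogenic conversions themselves were not affected by Abcg1 inactivation. Its calls also used an adjusted P-value, whereas these ratios of means were not tested. Fdx1, the ferredoxin that passes electrons to the mitochondrial steroid enzymes, stood at 13475 in the combined group and 17300 in Abcg1 cKO (log2 ratio 0.36), and its reductase Fdxr at 18000 and 20111 (0.16). Cyp11a1, which cleaves the cholesterol side chain, stood at 89509 and 109837 (log2 ratio 0.30). No oxidative phosphorylation gene reached the median of this list.

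Markers of other cells that whole glands can hold also differed between the conditions. All 10 adipocyte markers were past the fold in Abcg1 cKO, with a summed normalized count of 22919 in the combined group and 50428 in Abcg1 cKO and Adipoq at 1019 and 2818. Of 8 brown adipocyte markers, 7 had a mean of at least 10, and of these 5 were higher and 1 lower past the fold. Ucp1, the uncoupling protein that defines brown fat, stood at 386 and 789 (log2 ratio 1.03). Of the isoforms shared with brown fat, Cox7a1 and Cox8b had log2 ratios of -0.22 and 0.22. Cox6a2, at means of only 16.5 and 11.5, had one of -0.49. All 10 chromaffin markers were past the fold, with summed counts of 164526 and 225034 and Th at 8765 and 14984. Cortical identity was clear in both conditions, with Star at 374521 and 507891. Of 10 cortex markers 8 were above 0, 7 of them past the fold. The lower ones were Hsd3b1, at 482180 and 434588 (log2 ratio -0.15), and Mc2r, at 10012 and 9560 (-0.07). Skeletal muscle markers were near 0 in both conditions, with Ckm at 3.52 and 3.67, Acta1 at 2.02 and 6.12, and a summed count over 10 genes of 63.6 and 63.0. The summed count of 6 cardiac markers was 62.5 and 48.0, and the erythroid marker Alas2 stood at 258 and 224. The other 6 erythroid markers, all globin genes, were listed at 0, which is given as listed and says nothing of red cells. The part of these cells in the members' ratios was not tested.

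**Figure D4:**
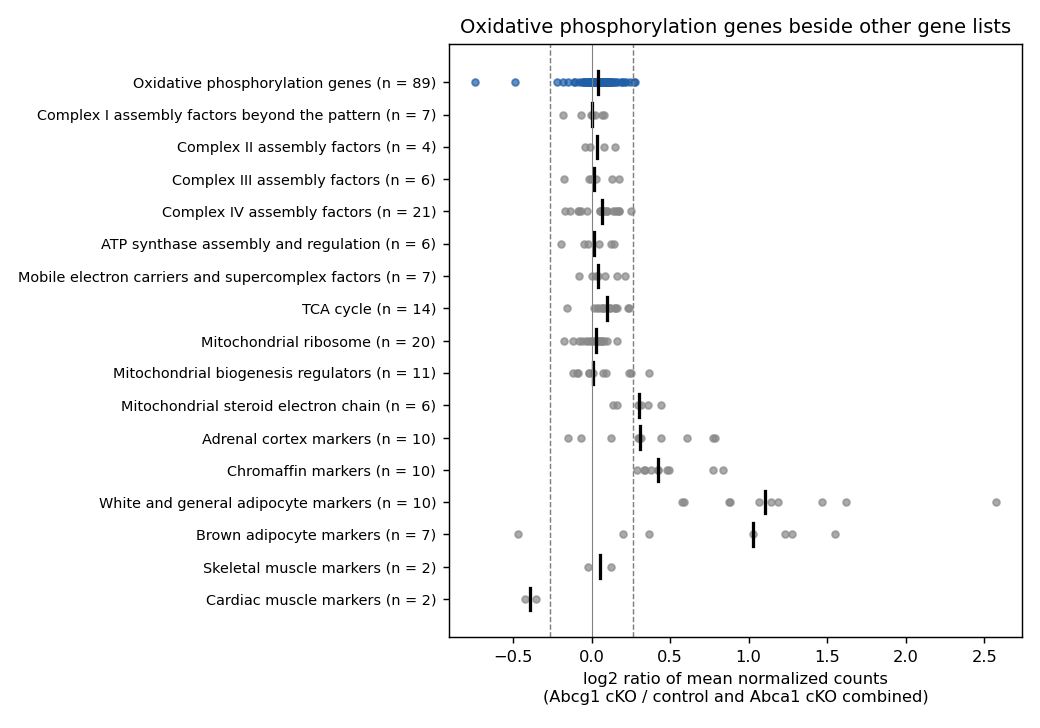
log2 ratio of mean normalized counts (Abcg1 cKO mean divided by the mean of the 8 other libraries) for each gene with a mean of at least 10 in the oxidative phosphorylation set (top row) and in 16 other lists. Points are genes, bars medians, dashed lines a fold of 1.2. The oxidative phosphorylation genes have a median of 0.04, chromaffin markers one of 0.42 and adipocyte markers one of 1.103. The row labelled mitochondrial steroid electron chain, which also holds Star, has a median of 0.30.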

How the data were processed

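Per the labels' processing notes and the methods, demultiplexing by the authors used bcl2fastq 2.20.0.422. They trimmed them with cutadapt 4.0, checked them with FastQC 0.11.9, mapped them with STAR 2.7.10a to mm10, counted unique matches per gene with HTSeq 0.13.5 and normalized with DESeq2 1.38.3. The strand setting of the counting was not found. The methods name both the NovaSeq and the NextSeq platform for sequencing and do not say which libraries ran on which. The deposited signal values are the authors' mean normalized counts per condition and over all 12 libraries. Raw depth per library is unknown from these means. The table also holds the authors' own fold changes, standard errors and p-values, which were not used, and 12 columns of single libraries whose names match no sample label and which were not used either.

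Log2 ratios used a pseudocount of 1, genes with a mean over all libraries of at least 10 and a fold of 1.2. The limma fit foreseen for values per library was not run. Lengths and positions came from GENCODE M21 for GRCm38 (all exons joined, longest transcript, or the transcript with the best APPRIS principal rank and support) for all 92 members, 1 of them under a newer symbol. Copies were sought with BLAST 2.17.0 from the longest transcript of each member, and short matches were dropped. Promoters came from RefSeq for GRCm38.p6, and the NRF1 and YY1 motifs were shortened by 1 base after a first search. Calculations used Python 3.11.15, pandas 2.3.3 and SciPy 1.17.1, and the ratio and count step was tested on simulated data.

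Named genes were, per complex, the 3 highest and 3 lowest ratios at a mean of at least 100, the genes past the fold, the isoform families, members under the filter and leading genes of the other lists. Some that the rule takes in are given only in ranges, and others were named for their role after their values were seen. Members and lists were chosen with earlier results of these data known. Alternatives were other pseudocounts, filters, folds, members, centring and lengths. Where the lists share genes, each counts them.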

Additional observations from a re-analysis of the deposited data

How the results depend on the processing

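No paired analysis was possible because the table gives means of conditions and no value that can be tied to a replicate number. No library was left out in turn, since columns of single libraries were not assigned to groups from their values. Medians were taken as the same when they moved by at most 0.01. The median log2 ratio of all members was 0.0522 with a mean of at least 1000. That of complex IV was 0.0100 without a filter, which adds 2 tissue isoforms. It was 0.0736 with a mean of at least 100, which leaves out Cox6b2, Cox6a2 and Cox4i2. A mean of at least 1000, which leaves out every tissue isoform, gave the same value. Past a fold of 1.1, 11 members were higher and 5 lower, and past 1.5 the counts were 0 and 1. With a mean of at least 100 or of at least 1000, 0 were lower. The level of Atp5g1 was 3130 per kb with the principal transcript and 380 with all exons joined. The other medians and counts kept their value within these limits under pseudocounts of 0.1 and 10, with subunits only, with Ndufa4 placed in complex IV and centred on the median of all genes. The differences were not set against the variation between animals.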

Other observations

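Across the 74 members with a mean of at least 1000, the log2 ratio had a Spearman correlation of 0.29 with the length of the principal transcript, 0.20 with the longest transcript and 0.09 with all exons joined. The members share all 12 libraries, so these are descriptions. Over all genes of that level the same correlations were 0.05, 0.01 and -0.03. The 24 members with the shortest principal transcripts, from 371 to 618 bases, had a median log2 ratio of 0.03, and the 24 with the longest, from 1079 to 3171 bases, one of 0.08. The large subunits Sdha, Atp5a1, Atp5b and Ndufs1 are among the latter. The part of transcript length in the members' ratios was not tested.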
